A study of Mus musculus with 16 samples.

Results

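The 38 genes described here encode proteins of the synaptic vesicle, of the presynaptic active zone and of the postsynaptic scaffold. The rule names them by function and sets no threshold on a measured value, and all 38 were found among 20409 genes with a symbol. Of these, 21 are presynaptic (the synapsins Syn1, Syn2 and Syn3, Syp, Sv2a, Slc17a6, Slc17a7, Syt1, Syt4, Syt11, Snap25, Stx1a, Vamp2, Cplx2, Bsn, Pclo, Rims1, Rims2, Unc13a, Nrxn2 and Nrxn3). The other 17 are postsynaptic (Nlgn1, Nlgn2, Nlgn3, Dlg1, Dlg2, Dlg3, Dlg4, Dlgap1, Dlgap3, Dlgap4, Shank1, Shank2, Shank3, Homer1, Camk2a, Camk2b and Agap2). Syt4, Syt11, Camk2a, Camk2b and Dlg1 are known on both sides of the synapse or outside it, and each was placed on 1 side. The genes were measured in cultures of adult neural stem cells, the precursors of new hippocampal neurons. The cells came from the dentate gyri of male mice of the strain FVB/N, aged 8 to 10 weeks. The mice either lacked Fmr1 (KO, Fmr1 -/y) or were their wild type littermates (WT), and there were 4 cultures of each genotype, each from a separate isolation. Both genotypes were kept in proliferation medium with the growth factors FGF2 and EGF, both at 20 ng/ml, and received 100 µg/ml cycloheximide, which holds ribosomes in place on the mRNA, during the last 10 min. From each of the 8 cultures, 2 libraries were made from 1 lysate: cytoplasmic RNA, and footprints, the stretches of mRNA left inside single ribosomes after RNase A and T1 had digested the rest. This gives 16 libraries. Fmr1 encodes FMRP, an RNA-binding protein associated with ribosomes.

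In a neuron, vesicular transporters load transmitter into vesicles, synapsins hold the vesicles in reserve, and SNARE proteins with complexin and a synaptotagmin calcium sensor fuse them at the active zone, which Bassoon, Piccolo, RIM and Munc13 proteins organise. Neurexins on the presynaptic membrane bind neuroligins on the other side of the cleft, where DLG proteins, SAPAPs (Dlgap genes), SHANKs and Homer form the scaffold that holds receptors and the kinase CaMKII. Neural stem cells form no synapses, many of these genes are held down outside neurons by the repressor REST, and many of the mRNAs are known ligands of FMRP in brain.

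The promoter windows of 3 members held a part of the RE1 element, the DNA site that REST binds (both parts in Unc13a), and are shown because Syn1 is a textbook target of that control in cells that are not neurons. The search was made after the expression values were known and used 2 motifs, TTCAGCACC and GGACAGCGC (the left and right parts of the element), on both strands of windows from 250 bases before to 50 after each start site (RefSeq, GRCm38.p6). Of the 38 members, 28 had an entry, with 44 windows in all. TTCAGCACC was in 3 of the 44 windows (6.82%) and in 122 of all 32851 windows (0.371%). GGACAGCGC was in 1 of the 44 (2.27%) and in 133 of all windows (0.405%). The 3 windows belonged to Syn1 (chrX:20920919-20921168), Nlgn1 (chr3:26153987-26154236, a start site inside the gene) and Unc13a (chr8:71671727-71671752), each read on the minus strand. The first 2 stretches run to the start site and the third begins just after it. Capitals mark the motifs, which in Unc13a are both on the opposite strand.
Syn1: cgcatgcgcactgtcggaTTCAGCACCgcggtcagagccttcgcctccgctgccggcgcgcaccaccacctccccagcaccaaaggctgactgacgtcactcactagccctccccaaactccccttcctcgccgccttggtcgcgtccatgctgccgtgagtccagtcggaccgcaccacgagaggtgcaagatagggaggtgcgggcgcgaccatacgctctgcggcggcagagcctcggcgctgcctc
Nlgn1: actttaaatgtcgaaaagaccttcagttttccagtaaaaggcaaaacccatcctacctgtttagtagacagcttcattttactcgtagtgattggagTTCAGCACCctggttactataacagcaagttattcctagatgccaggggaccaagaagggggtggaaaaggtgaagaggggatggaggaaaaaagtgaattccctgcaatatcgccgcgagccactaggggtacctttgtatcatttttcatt
Unc13a: GCGCTGTCCgcgcccccGGTGCTGAA
A match of letters is no measured site, and whether REST was bound was not tested. Syn1, Nlgn1 and Unc13a had counts in all 16 libraries. Syn1 averaged 231.5 counts per library in RNA and 381.5 in footprints, and the values of Unc13a are given below.

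Libraries held 5330018 to 6580305 counts in RNA and 9397586 to 17147612 in footprints, and values are given as CPM (counts per 1000000 of the library, scaled by TMM within an assay) in the order of replicates 1 to 4. Fmr1 RNA stood at 40.8, 107, 37.2 and 27.4 CPM in WT and 8.62, 30.8, 10.7 and 3.35 in KO, and its footprints at 129, 149.6, 149 and 149 CPM in WT and 24.1, 27, 12.7 and 14.7 in KO. Each KO footprint library was below every WT one, while KO 2 RNA lay within the WT range. Of 14 stem cell markers, 11 to 13 reached 1 CPM in a library. Nes, an intermediate filament of precursors, ran from 1240 to 3103 CPM, while Prom1 was at or near 0 and Id4 was at 0 in KO 3 RNA. Microglia markers summed to at most 4.16 CPM in a library, with Cx3cr1 and Aif1 at 0 in all 16, and endothelial and mural markers to 5.93 to 40.6 CPM, with Cldn5 at 0. Oligodendrocyte lineage markers summed to 1121 to 2136 CPM. Astrocyte markers, some of which stem cells share, summed to 1384 to 3427 CPM in KO RNA and 873 to 3624 in WT RNA. They were higher in KO 3 and KO 4 (1907 and 1384 CPM in RNA, 2860 and 2102 in footprints) than in WT 3 and WT 4 (873 and 1023 in RNA, 1029 and 1269 in footprints). Markers of neurons, 21 genes of which 11 to 21 had a count in a library, summed to 299 to 984 CPM in WT RNA, 337 to 752 in KO RNA, 1310 to 2120 in WT footprints and 1026 to 1346 in KO footprints. Most of that was Map2, which stem cells also express, and Neurod6 was at 0 in every WT RNA library and in both KO 3 and KO 4 RNA. The part of these markers in the results was not tested. Single neuron markers were uneven in ways that touch the members. Of the 11472 genes tested in footprints, 3.9% had their highest 2 footprint values in KO 3 and KO 4. Markers were counted whether or not they were in that test, so the shares are over unlike sets. The footprint libraries KO 3 and KO 4 held the highest 2 values of 11 of 21 neuron markers over the 8 footprint libraries. The same held for 0 of 14 stem cell markers, 0 of 9 astrocyte and 2 of 10 oligodendrocyte lineage markers. It also held for 1 of 7 microglia and 1 of 8 endothelial and mural markers. The RNA libraries of the same cultures held the highest RNA values of no neuron or stem cell marker. Summed neuron markers stood at 1026 CPM in KO 3 footprints, the lowest of the 8 footprint libraries, and at 1346 in KO 4. Stmn2, a tubulin-binding protein of neurons, had footprints at 0, 0, 0.913 and 2.27 CPM in WT and 0, 0.0594, 13 and 12.2 in KO and RNA at 0.392, 0.307, 0.165 and 0 CPM in WT and 0.338, 0, 0 and 0 in KO. Gad2, which makes the transmitter GABA, had footprints at 0, 0, 0.304 and 1.19 CPM in WT and 0, 0, 4.83 and 5.46 in KO and RNA at 0.196, 0, 0 and 0 CPM in WT and 0.338, 0, 0.163 and 0 in KO. Gap43, a protein of growing axons, was high in culture WT 2 in both assays. It stood at 0.588, 71.4, 0.988 and 2.82 CPM in WT RNA and 0, 146, 0.609 and 11.9 in WT footprints. Stmn2 was not high in WT 2. Summed neuron markers were lower in WT 2 than in WT 1, at 849 against 984 CPM in RNA and 1396 against 2120 in footprints. The libraries of KO 3, KO 4 and WT 2 were singled out after the values were seen. Their part in the results below was not tested. Whether the footprint libraries KO 3 and KO 4 hold material of another sample was not tested either, so each of their footprint values carries that doubt. Values without them stand beside the main results they move, though not beside every value. In bulk cultures, fewer cells of a type and less RNA per cell cannot be told apart.

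Levels between genes were compared per length, as the authors' TPM (rounded to whole numbers) averaged over the 8 RNA libraries. The median member had 9.12 TPM in RNA, 3.75 for the presynaptic and 24.6 for the postsynaptic members. In footprints the medians were 3.75 and 6.12 TPM. In RNA, 9 members reached 50 TPM or more, and 6 were under 1 TPM. The highest presynaptic members were Syt11 (306 TPM), an atypical synaptotagmin that does not sense calcium, the neurexin Nrxn2 (128 TPM), Cplx2 (100.2 TPM), a complexin, and Vamp2 (70.1 TPM), the SNARE of the vesicle. The highest postsynaptic members were Camk2b (170.2 TPM), a subunit of CaMKII, the neuroligin Nlgn3 (106 TPM), Dlgap4 (76.1 TPM), a SAPAP, and Dlg4 (66 TPM), which encodes PSD-95. The classical markers of a mature terminal were far lower on the same scale: Syp, a vesicle membrane protein, had 9.12 TPM, Syt1, the calcium sensor of release, 4.25, Snap25, a SNARE of the plasma membrane, 3.00, and the glutamate transporter Slc17a7 1.25. Vamp2 and Cplx2 averaged only 42 and 90.5 counts per RNA library, so their place in this order rests on few reads and on the transcript lengths the authors' tool assigned.

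**Figure D1:**
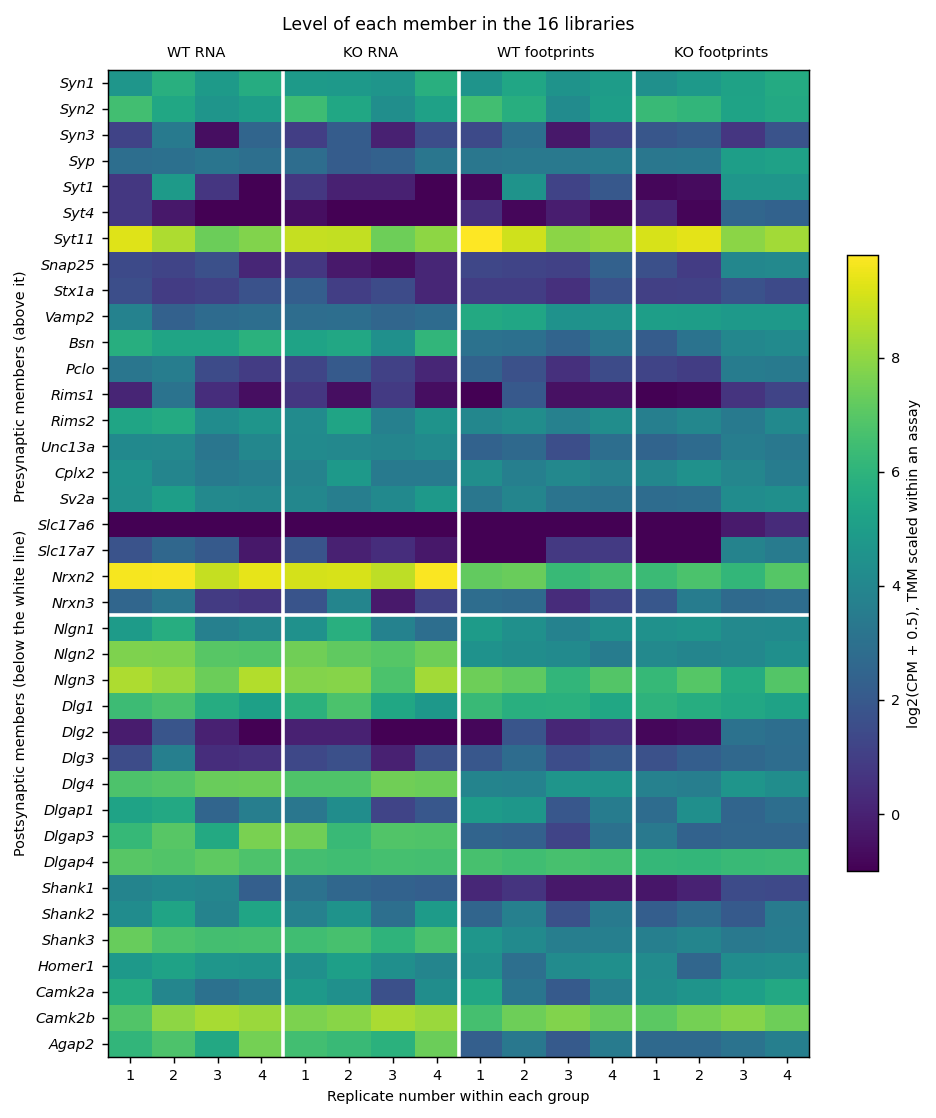
Level of the 38 members, as log2(CPM + 0.5), in the 16 libraries (columns, replicates 1 to 4 of each group), presynaptic members above the white line and postsynaptic members below it. Syt11 and Nrxn2 are bright throughout, while Syt1, Syt4, Snap25, Slc17a7 and Dlg2 brighten in the footprint columns KO 3 and KO 4 and not in the RNA columns of the same cultures.

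Low counts were found for 5 members in RNA and 1 in footprints, where low means an average under 10 counts per library over the 8 libraries of an assay. Slc17a6, which encodes the glutamate transporter VGLUT2, was low in both: it had 0 of 48722434 counts over the 8 RNA libraries (which allows up to 0.0616 CPM), and its footprints were at 0, 0, 0 and 0 CPM in WT and 0, 0, 0.371 and 0.74 in KO. Syt4, a synaptotagmin of dense-core vesicles, Snap25, Rims1, a RIM scaffold of the active zone, and Dlg2, which encodes PSD-93, were low in RNA only. The other 33 members, 17 presynaptic and 16 postsynaptic, were low in neither assay. An average can hide a skew: Syt1 averaged 26.9 RNA counts, yet its RNA stood at 1.18, 29, 1.15 and 0 CPM in WT and 1.18, 0.497, 0.488 and 0 in KO, so culture WT 2 carried most of it. The filter on low counts kept 32 members in RNA (without Syt1, Syt4, Snap25, Rims1, Slc17a6 and Dlg2), 34 in footprints (without Syt4, Rims1, Slc17a6 and Shank1) and 31 where both assays were fitted together. The members kept are not the whole list, and a member kept through 1 group of high libraries was bound to differ.

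Footprints relative to RNA spread widely over the members, from an excess of footprints in Vamp2 to a shortage in Dlgap3 (chromosome 4, 127168305 to 127237022, mm10). Of the 31 members tested, 6 had more footprints than RNA relative to the typical gene and 13 had fewer (edgeR quasi-likelihood test, culture as a block, 8 cultures, adjusted p under 0.05). Over all 10863 genes tested, 41.7% were called higher and 39.0% lower, so a call by itself does not set a member apart. The presynaptic members split evenly, 5 higher and 5 lower of 16 with a median log2 ratio of 0.12. Of 15 postsynaptic members 1 was higher and 8 were lower, with a median of -0.51. The median over all genes was 0.045. The RNA and footprint libraries were made with different kits, and the part of the kits in a gene's ratio was not tested.

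Among the vesicle and release genes, Vamp2 (chromosome 11, 69088528 to 69092381) had the highest ratio. It had RNA at 13.1, 4.60, 6.26 and 6.88 CPM in WT and 6.76, 6.96, 5.36 and 6.39 in KO, and footprints at 46, 41.8, 21.9 and 22.7 in WT and 32.5, 32.1, 27.3 and 27.7 in KO. Footprint CPM exceeded RNA CPM in each of the 8 cultures, and the fitted log2 footprints over RNA was 2.37 (SE 0.15, adjusted p = 2.0e-08). Syp (chromosome X, 7638580 to 7653256) followed with 1.21 (SE 0.28, adjusted p = 0.002) and had RNA at 7.06, 7.36, 8.73 and 7.19 CPM in WT and 6.76, 3.98, 4.55 and 8.98 in KO, and footprints at 9.22, 9.87, 9.84 and 10.7 in WT and 9.08, 9.38, 33.1 and 36.1 in KO. Its footprints in KO 3 and KO 4 were above all other footprint libraries, and with both cultures left out the ratio was 0.72 (SE 0.17, adjusted p = 0.003). Syt11 (chromosome 3, 88744699 to 88775159) had RNA at 612, 355, 166 and 216 CPM in WT and 455, 445, 168 and 251 in KO, and footprints at 889, 518, 238 and 283 in WT and 573, 646, 242 and 314 in KO. Its ratio was 0.66 (SE 0.06, adjusted p = 4.9e-07) in the fit, which scales both assays together, and the CPM ratios of the 8 cultures lay between 0.33 and 0.54 on the log2 scale. Its RNA and footprints were both higher in replicates 1 and 2 than in 3 and 4, in either genotype. Syn2, a synapsin, had RNA at 92.3, 42.5, 24 and 32.1 CPM in WT and 85.7, 42.6, 19.8 and 36.2 in KO, and footprints at 92.7, 54.4, 17.9 and 32.4 in WT and 79.3, 67.8, 37.9 and 45.2 in KO, and a ratio of 0.42 (SE 0.14, adjusted p = 0.013). Cplx2 had RNA at 22, 14.4, 10.5 and 12.2 CPM in WT and 13.5, 27.2, 10.6 and 10.2 in KO, and footprints at 20.0, 12.3, 15.9 and 13 in WT and 15.6, 21.8, 15 and 11 in KO, with 0.29 (SE 0.12, adjusted p = 0.046). With KO 3 and KO 4 left out neither passed: the ratio was 0.29 (SE 0.14, adjusted p = 0.08) for Syn2 and 0.22 (SE 0.14, adjusted p = 0.187) for Cplx2. Cplx2 also missed the threshold without any 1 of KO 1, KO 3, KO 4, WT 1, WT 3 and WT 4 (adjusted p between 0.0725 and 0.122).

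The 5 presynaptic members with fewer footprints than RNA were Nrxn2, Bsn, Unc13a, Sv2a and Rims2. Nrxn2 (chromosome 19, 6418756 to 6533217) had RNA at 809, 838, 467 and 678 CPM in WT and 554, 572, 417 and 852 in KO, and footprints at 146, 160.1, 75.9 and 94.8 in WT and 81, 106, 71.5 and 124 in KO. The CPM ratios of all 8 cultures lay between -2.83 and -2.38 on the log2 scale, and the fit gave -2.41 (SE 0.07, adjusted p = 6.3e-11). Bsn, which encodes the active zone protein Bassoon, had RNA at 54.7, 38.8, 39.2 and 59 CPM in WT and 37.9, 44.1, 21.1 and 69.1 in KO, and footprints at 7.84, 7.52, 5.07 and 9.08 in WT and 3.88, 8.08, 15.5 and 17.4 in KO. Its ratio of -2.17 (SE 0.25, adjusted p = 5.1e-06) was -2.54 (SE 0.14) without KO 3 and KO 4, where its footprints were highest. Unc13a, which encodes the vesicle priming factor Munc13-1, had RNA at 17.1, 16.4, 9.06 and 15.3 CPM in WT and 17.6, 16.1, 14.6 and 17.7 in KO, and footprints at 4.72, 5.92, 2.54 and 6.92 in WT and 5.13, 6.41, 11.6 and 9.53 in KO, and a ratio of -1.11 (SE 0.17, adjusted p = 7.6e-05). Sv2a, a vesicle glycoprotein, had RNA at 21.4, 32.3, 16.6 and 15.6 CPM in WT and 15.6, 11.8, 17.1 and 28 in KO, and footprints at 9.14, 14.7, 8.52 and 8.00 in WT and 6.45, 6.89, 18.8 and 20.3 in KO, with -0.63 (SE 0.16, adjusted p = 0.002). Rims2, a RIM protein, had RNA at 40.4, 47.8, 18.3 and 24.2 CPM in WT and 18.3, 38.8, 12.5 and 23 in KO, and footprints at 15.6, 19.4, 13 and 19.1 in WT and 12, 15.3, 10.4 and 17.1 in KO, with -0.59 (SE 0.16, adjusted p = 0.004). Without KO 3 and KO 4, where footprints of Bsn, Unc13a and Sv2a were highest, the ratio was -1.35 (SE 0.16, adjusted p = 1.5e-05) for Unc13a and -0.86 (SE 0.13, adjusted p = 1.1e-04) for Sv2a. Of the other 6 presynaptic members tested, Syn1, Syn3, Stx1a, Pclo, Slc17a7 and Nrxn3, none passed in this fit, with log2 ratios from -0.39 to 0.67. Slc17a7 passed without KO 3 and KO 4, at -2.75 (SE 0.95, adjusted p = 0.022).

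The scaffold genes held the lowest ratios. Dlgap3, a SAPAP that links PSD-95 to SHANK, had RNA at 74.9, 126, 47.3 and 197 CPM in WT and 176, 78.8, 116 and 114 in KO, and footprints at 5.15, 4.56, 1.83 and 7.57 in WT and 9.67, 4.75, 5.48 and 5.46 in KO. RNA exceeded footprints in all 8 cultures, and the ratio was -4.16 (SE 0.12, adjusted p = 3.7e-11). Agap2, a GTPase-activating protein of the dendrite and nucleus, had RNA at 67.4, 108, 45.3 and 186 CPM in WT and 92.5, 78.4, 59.6 and 163 in KO, and footprints at 4.35, 9.64, 3.65 and 10.7 in WT and 6.01, 5.94, 8.17 and 12.1 in KO, with a ratio of -3.49 (SE 0.13, adjusted p = 2.2e-10). Nlgn2, the neuroligin of inhibitory synapses, had RNA at 212, 201, 126 and 119.6 CPM in WT and 173, 144, 124 and 173 in KO, and footprints at 22.3, 19.1, 17.5 and 11.1 in WT and 16.3, 14.6, 15.9 and 20.0 in KO, with -3.01 (SE 0.09, adjusted p = 5.0e-11). No culture of either gene came near an equal share of footprints and RNA. Dlg4 had RNA at 109.6, 118, 160.4 and 167 CPM in WT and 113, 114, 176 and 166 in KO, and footprints at 13.9, 13.3, 24.1 and 23.5 in WT and 12.8, 11.9, 24.2 and 19.2 in KO, with -2.81 (SE 0.08, adjusted p = 5.2e-11). Shank3 had RNA at 156, 105, 94.7 and 96.5 CPM in WT and 89.9, 101, 64.4 and 104 in KO, and footprints at 24.9, 17.6, 11.8 and 12.2 in WT and 12.2, 14.7, 9.84 and 10.9 in KO, with -2.65 (SE 0.09, adjusted p = 1.1e-10). PSD-95 and SHANK3 are core scaffold proteins of the excitatory synapse, and these 5 genes each had a log2 ratio below -2.6.

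Shank2, of the same family as Shank3, had RNA at 18.4, 39.6, 13.7 and 39.9 CPM in WT and 13, 22.5, 7.15 and 30.0 in KO, and footprints at 5.23, 12.6, 2.74 and 10.1 in WT and 4.25, 6.47, 3.62 and 10.8 in KO, and a ratio of -1.51 (SE 0.13, adjusted p = 3.2e-07). Nlgn3 had RNA at 358, 282, 167 and 376 CPM in WT and 218, 225, 107 and 311 in KO, and footprints at 172, 139.8, 69.4 and 121 in WT and 75.8, 124, 49.7 and 121 in KO, with -1.03 (SE 0.09, adjusted p = 3.8e-07). Camk2b had RNA at 115, 251, 334 and 289 CPM in WT and 205, 232, 345 and 289 in KO, and footprints at 96.8, 169, 216 and 158 in WT and 133, 187, 231 and 169 in KO, with -0.38 (SE 0.08, adjusted p = 6.4e-04). These shortages were milder than those of Dlgap3 and Agap2. Dlg3, which encodes SAP102, was the 1 postsynaptic member called higher, at 1.07 (SE 0.37, adjusted p = 0.017), and had RNA at 2.35, 12.1, 0.823 and 0.938 CPM in WT and 2.03, 2.65, 0.488 and 2.74 in KO, and footprints at 3.27, 6.61, 2.43 and 3.57 in WT and 2.71, 4.16, 5.75 and 6.85 in KO. Without KO 3 and KO 4 it was 0.67 (SE 0.34, adjusted p = 0.097), and without these and WT 2, where its RNA was highest, 1.11 (SE 0.30, adjusted p = 0.007). Camk2a, the alpha subunit of CaMKII, did not pass at 0.44 (SE 0.39, adjusted p = 0.301), and had RNA at 50.2, 14.9, 7.74 and 10.8 CPM in WT and 28.6, 20.7, 2.60 and 18.9 in KO, and footprints at 44.1, 8.66, 3.65 and 12.4 in WT and 19.3, 23.8, 34 and 44.6 in KO. Its footprints were high in WT 1, KO 3 and KO 4, and of these WT 1 alone had RNA as high. Nlgn1, Dlg1, Dlgap1, Dlgap4 and Homer1 did not pass either, with ratios from -0.51 to 0.12. Without KO 3 and KO 4 the presynaptic count was 3 higher and 6 lower of 17, and the postsynaptic count 0 higher and 8 lower of 15, against 39.2% higher and 36.7% lower over all genes.

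**Figure D2:**
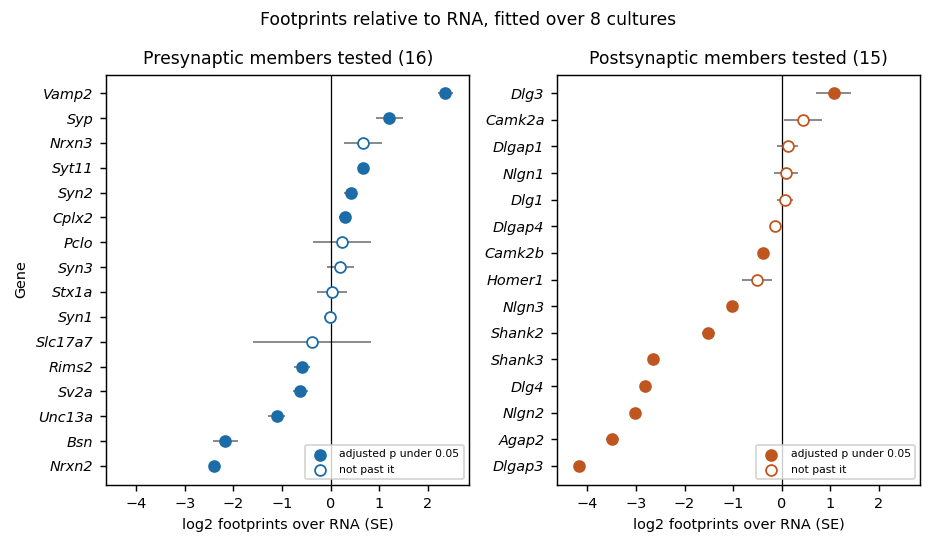
Fitted log2 footprints over RNA (points) with the standard error (bars) for the 16 presynaptic and 15 postsynaptic members tested over 8 cultures, filled where the adjusted p was under 0.05. The postsynaptic panel reaches from Dlg3 at 1.07 down to Dlgap3 at -4.16, with 8 filled points left of 0 and 1 right of it.

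Set side by side within each culture, the presynaptic members lay above the postsynaptic ones. For the 17 presynaptic and 16 postsynaptic members that were low in neither assay, log2 footprints over RNA was computed per culture from CPM with 0.5 added, and the median taken on each side. The presynaptic median was -0.64, -0.44, -0.47 and 0.016 in WT cultures 1 to 4 and -0.47, -0.41, 0.58 and 0.31 in KO cultures 1 to 4. The postsynaptic median was -0.72, -1.45, -1.13 and -1.25 in WT and -1.06, -1.47, -0.74 and -0.81 in KO. The presynaptic side was higher in 8 of 8 cultures, by 0.89 ± 0.42 on average (SD, n = 8), 0.75 ± 0.51 in WT and 1.02 ± 0.31 in KO (n = 4 each). Culture WT 1 had the smallest gap, 0.079. The 2 highest presynaptic medians were those of KO 3 and KO 4, and without these cultures the average gap was 0.78. Without Syt4, Syt11, Camk2a, Camk2b and Dlg1, the 5 genes known on both sides, it was 1.57. With a minimum of 50 counts per library in place of 10, it was 0.47. The same comparison gave 0.69 ± 0.46 in replicates 1 and 2 and 1.09 ± 0.30 in replicates 3 and 4 (n = 4 each). These medians describe a chosen list and carry no test. The median of all 10863 genes lay between -0.18 and -0.12 in every culture.

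**Figure D3:**
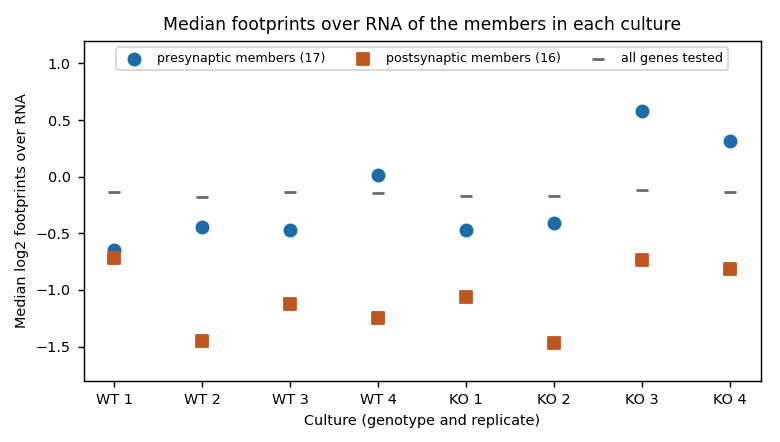
Median log2 footprints over RNA of 17 presynaptic members (circles), 16 postsynaptic members (squares) and all genes tested (dashes) in each of the 8 cultures. The circles lie above the squares in every culture, barely so in WT 1, and rise above the dashes in WT 4, KO 3 and KO 4.

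In RNA, no member differed between KO and WT past the threshold (edgeR quasi-likelihood test, 4 libraries against 4), and neither DESeq2 nor limma-voom called one. Of all 11097 genes tested, 0.00901% passed, which is 1 gene. At an unadjusted p under 0.05 there were 2 members of 32, both lower in KO, against 1.87% of all genes. With the replicate number as a block there were 7, Pclo, Rims2, Nlgn3, Dlgap1, Dlgap4, Shank1 and Shank2, all lower in KO, against 6.38% of all genes, and none passed after adjustment (lowest adjusted p = 0.193, edgeR). The members' fold changes lay mostly below 0: 7 of 32 were positive, with a median log2 KO over WT of -0.23, where 51.3% of all genes were positive with a median of 0.0079. The presynaptic median was -0.22 (4 of 16 positive) and the postsynaptic -0.29 (3 of 16 positive). Without KO 3, KO 4 and WT 2, 15 of 33 members were positive, with a median of -0.20, where 49.2% of all genes were positive. In replicates 1 and 2 both KO libraries were below both WT libraries for 11 of the 32 members, against 12.0% of all genes, and above for 0, against 18.0%. In replicates 3 and 4 they were below for 3 members, Dlgap1, Dlgap4 and Homer1, against 11.8% of all genes, and above for 1, Sv2a, against 12.2%.

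The 3 members with the smallest p in RNA were Shank1, Dlgap4 and Pclo. Shank1 had RNA at 14.1, 17, 14.8 and 4.38 CPM in WT and 7.78, 5.63, 4.71 and 4.26 in KO, a log2 KO over WT of -1.17 (SE 0.44, adjusted p = 1.00). WT 4 lay within the KO range, so the groups overlapped, while KO was below WT in each of the 4 pairs of the same number. Its footprints were too few for the test, at 0.653, 1.06, 0.304 and 0.324 CPM in WT and 0.293, 0.534, 2.23 and 2.13 in KO. Dlgap4 (chromosome 2, 156613633 to 156764363) had RNA at 128, 117, 139.8 and 110.4 CPM in WT and 95.2, 89.3, 96.2 and 93.3 in KO, a log2 fold change of -0.41 (SE 0.17, adjusted p = 1.00). Its footprints stood at 100.2, 88.3, 101 and 91.3 CPM in WT and 73, 69.8, 79.4 and 81.8 in KO, with -0.33 (SE 0.11, adjusted p = 0.89). It was the 1 member whose 4 KO libraries lay below all 4 WT libraries in both assays, which held for 0.577% of all genes in RNA and 0.846% in footprints. Footprints relative to RNA did not pass for Dlgap4, at 0.09 (SE 0.18, adjusted p = 1.00). Its footprints were lower in KO also within each pair of replicates, at -0.39 (SE 0.22) on the log2 scale in replicates 1 and 2 and -0.26 (SE 0.13) in replicates 3 and 4, and with KO 3 and KO 4 left out they were at -0.39 (SE 0.19, adjusted p = 0.985). Pclo, which encodes the active zone protein Piccolo, had RNA at 9.02, 11.3, 2.31 and 1.41 CPM in WT and 1.86, 3.64, 1.63 and 0.609 in KO, with -1.63 (SE 0.76, adjusted p = 1.00). WT 1 and WT 2 stood above the other 6 libraries, and KO was below WT in 4 of 4 pairs of the same number. Dlgap1, a further SAPAP, had a larger difference than Dlgap4 with more spread, -1.58 (SE 0.82, adjusted p = 1.00), from RNA at 38, 44.9, 5.27 and 11.7 CPM in WT and 9.30, 19, 1.79 and 3.35 in KO. It too was lower in KO in 4 of 4 pairs of the same number, and in the blocked fit its adjusted p was 0.193. That cultures of the same number form pairs is an assumption of these counts and of the blocked fit.

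In footprints, no member passed by edgeR or limma-voom, and DESeq2 called 1, Slc17a7, against 0.715% of all genes. Of all 11472 genes, 0.0349% passed by edgeR, which is 4 genes. At an unadjusted p under 0.05 there were 4 members of 34, Slc17a7 and Syp higher in KO and Dlgap4 and Shank3 lower, against 4.59% of all genes. Of the presynaptic members 13 of 18 were positive, with a median log2 KO over WT of 0.24, and of the postsynaptic members 6 of 16, with a median of -0.11. Without KO 3 and KO 4, 6 of 18 presynaptic members were positive, with a median of -0.27, and 2 of 16 postsynaptic members, with a median of -0.33. The median over all genes was 0.0063. Slc17a7 (chromosome 7, 45163921 to 45176139), which encodes the vesicular glutamate transporter VGLUT1, had the largest difference, 3.20 (SE 0.44, adjusted p = 0.324), or 2.93 (SE 0.67, adjusted p = 0.003) by DESeq2. Its footprints stood at 0, 0, 1.22 and 1.30 CPM in WT and 0, 0, 13.8 and 10.7 in KO, so the difference came from KO 3 and KO 4 alone. In the fit of all 8 footprint libraries Slc17a7 passed the filter on low counts only with those 2 libraries, so it was bound to differ. Its RNA was not high in those cultures, at 2.94, 5.52, 3.62 and 0.313 CPM in WT and 3.04, 0.497, 0.813 and 0.304 in KO. Shank3 footprints differed by -0.44 (SE 0.18, adjusted p = 0.999), with the groups overlapping at WT 3 and WT 4.

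The same 2 KO libraries held the highest footprint values of 10 of the 21 presynaptic members. Syp footprints were 33.1 and 36.1 CPM in KO 3 and KO 4 against 9.08 to 10.7 in the other 6 footprint libraries, while Syp RNA in KO 3 and KO 4 was 4.55 and 8.98 CPM. Syt1 footprints stood at 0.0726, 23.2, 1.72 and 3.46 CPM in WT and 0.0733, 0.119, 24.7 and 25.3 in KO, where KO 3 and KO 4 had almost no RNA and WT 2 had footprints and RNA alike. Snap25 footprints stood at 1.96, 1.82, 1.62 and 4.54 CPM in WT and 2.64, 1.37, 15.4 and 16.6 in KO, and its RNA at 2.16, 1.84, 2.63 and 0.626 CPM in WT and 1.18, 0.331, 0.163 and 0.609 in KO. The pattern in these SNARE and calcium sensor genes was that of Slc17a7. Pclo footprints stood at 4.72, 2.66, 0.913 and 2.27 CPM in WT and 1.83, 1.43, 11 and 10.0 in KO. Syt4 footprints stood at 0.871, 0.0759, 0.406 and 0.108 CPM in WT and 0.659, 0.0594, 5.48 and 4.72 in KO, with RNA at 1.18, 0.307, 0 and 0 CPM in WT and 0.169, 0, 0 and 0 in KO. Of the postsynaptic members, Dlg2 footprints stood at 0.0726, 3.11, 0.609 and 0.973 CPM in WT and 0.0733, 0.119, 7.89 and 7.03 in KO, and its RNA at 0.392, 3.07, 0.494 and 0 CPM in WT and 0.507, 0.497, 0 and 0 in KO. Over all 38 members, 12 had their highest 2 footprint values in KO 3 and KO 4, against 3.9% of the 11472 genes tested in footprints. None had its highest 2 RNA values there. Those 12 were Syp, Syt1, Syt4, Snap25, Bsn, Pclo, Unc13a, Sv2a, Slc17a6 and Slc17a7 among the presynaptic members and Dlg2 and Shank1 among the postsynaptic. Syt4, Slc17a6 and Shank1 were not in the footprint test, so the 2 shares are over unlike sets. Markers of neurons moved with them, 11 of 21 as given above, and whether those markers and the members share a source in these libraries was not tested. This comparison was chosen after the values were seen.

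**Figure D4:**
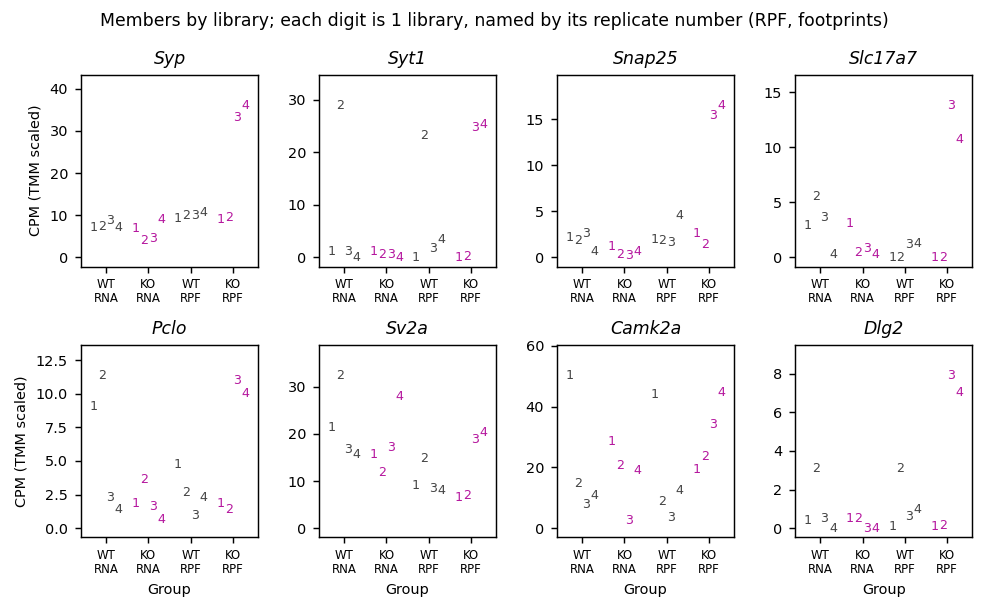
CPM of 8 members in each library, where each digit is 1 library named by its replicate number (WT grey, KO magenta), by genotype and assay. In the KO footprint columns, replicates 3 and 4 sit far above 1 and 2 for Syp, Syt1, Snap25, Slc17a7, Pclo, Sv2a and Dlg2. In the KO RNA columns they do not, except that for Sv2a replicates 3 and 4 lie above 1 and 2 there too.

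Read identifiers in the footprint libraries were 5 nt long for replicates 1 and 2 but 8 nt long for replicates 3 and 4, and the genotypes were therefore also compared within each pair. Within replicates 3 and 4, both KO libraries lay above both WT libraries for 15 of the 34 members tested, against 13.8% of all genes. These were 12 of 18 presynaptic members (Syn1, Syn2, Syp, Syt1, Snap25, Vamp2, Bsn, Pclo, Unc13a, Sv2a, Slc17a7 and Nrxn3) and 3 of 16 postsynaptic (Dlg2, Dlg3 and Camk2a). Of these, Syt1, Slc17a7 and Dlg2 passed the filter on low counts over all 8 footprint libraries only with their KO 3 and KO 4 footprints, so the filter favoured their place in this count. Within replicates 1 and 2 they lay above for 1, Stx1a, a SNARE of the plasma membrane, against 14.9% of all genes, and below for 11, against 13.7%. The fits over 2 libraries against 2 are given for the 16 presynaptic and 15 postsynaptic members tested in both pairs, since others, such as Syt4 and Shank1, entered the second pair only. In replicates 3 and 4, 14 of the 16 presynaptic members were positive with a median log2 KO over WT of 0.77, and 7 of the 15 postsynaptic members with a median of -0.02. Of all 11252 genes tested in both pairs, 46.4% were positive there. In replicates 1 and 2, 6 of the 16 presynaptic members were positive with a median of -0.27, and 2 of the 15 postsynaptic members with a median of -0.28, where 50.2% of all genes were positive. With KO 3 and KO 4 left out of the full comparison, the median of all members was -0.31, with 8 of 34 positive, in place of 0.13. No member passed the threshold in any of these fits.

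The values of 3 presynaptic genes, chosen after the values were seen, show the size of the gap between the pairs. Syp was 1.74 (SE 0.17, adjusted p = 0.28) in replicates 3 and 4 and -0.04 (SE 0.30) in replicates 1 and 2. Pclo was 2.70 (SE 0.51, adjusted p = 0.449) and -1.17 (SE 0.52). Sv2a was 1.23 (SE 0.20, adjusted p = 0.403) and -0.83 (SE 0.38). Each of these presynaptic genes was below 0 in the first pair and above 1 in the second. In RNA, both KO libraries were below both WT libraries in replicates 1 and 2 for all 3 genes. In replicates 3 and 4 both KO RNA libraries were above both WT ones for Sv2a only, so its RNA moved the same way as its footprints. The difference between the pairs was tested in 1 model of the 8 footprint libraries, a test added after the values were seen and prompted by them. The estimate was 1.80 (SE 0.28, adjusted p = 0.995) for Syp, 3.90 (SE 0.74, adjusted p = 1.00) for Pclo and 2.08 (SE 0.41, adjusted p = 1.00) for Sv2a. Over the members, 30 of 34 were positive with a median of 0.79, 1.18 for the presynaptic and 0.47 for the postsynaptic members, where the median of all genes was 0.0088. At an unadjusted p under 0.05 there were 10 members, 8 of them presynaptic, against 2.19% of all genes. None passed after adjustment, and the share of all genes that did was 0.0%. The 34 members include Syt1, Slc17a7 and Dlg2, which passed the filter of this model only with their KO 3 and KO 4 footprints. The filter therefore favoured these 3 genes in the counts of this model.

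**Figure D5:**
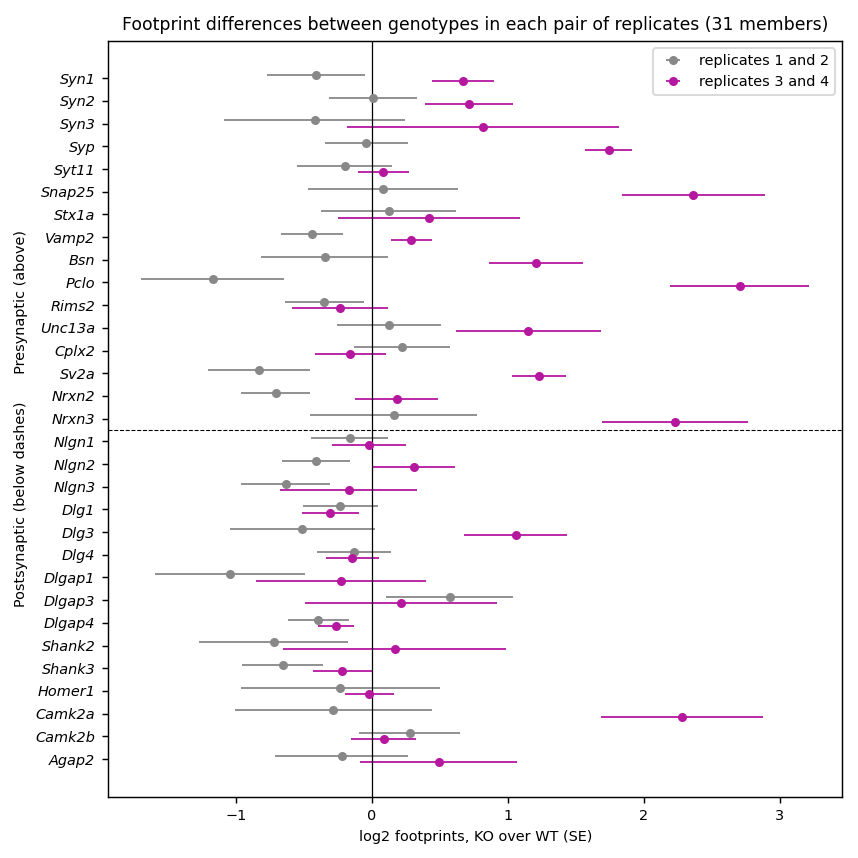
Log2 footprints, KO over WT, with the standard error, fitted in replicates 1 and 2 (grey) and in replicates 3 and 4 (magenta) for the 31 members tested in both. Above the dashed line most presynaptic members move right in replicates 3 and 4, Pclo from -1.17 to 2.70, while below it the scaffold genes Dlg4, Dlgap4 and Homer1 stay within 0.4 of 0 in both. Some other postsynaptic members do not, with Camk2a at 2.28 in replicates 3 and 4 and the lowest SAPAP gene at -1.04 in replicates 1 and 2.

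Footprints relative to RNA were compared between the genotypes as the interaction of assay and genotype over the 16 libraries. No member of 31 passed by edgeR, DESeq2 or limma-voom, and of all 10863 genes 0.0% passed by edgeR. At an unadjusted p under 0.05 there were 2 members, Slc17a7 and Syp, both higher in KO, against 0.129% of all genes. Positive values were common: 26 of 31 members, with a median log2 difference of 0.25, 0.44 for the presynaptic and 0.12 for the postsynaptic members, against 0.013 over all genes. With culture as a block, an alternative added later because both libraries of a culture share a lysate, none passed either (0.0% of all genes), and 5 members had an unadjusted p under 0.05, all higher in KO, against 1.4% of all genes: Slc17a7, Syp, Pclo, Dlgap1 and Camk2a. Without that block, Slc17a7 was 4.54 (SE 1.30, adjusted p = 1.00), Syp 1.18 (SE 0.49, adjusted p = 1.00) and Pclo 2.40 (SE 1.22, adjusted p = 1.00). With KO 3 and KO 4 left out, Syp was 0.49 (SE 0.48, adjusted p = 1.00) and Pclo 0.00 (SE 0.46), and the median over members was -0.11, with 12 of 32 positive (-0.11 also for the presynaptic members, with 6 of 17). In replicates 1 and 2 alone the median was 0.054, with 19 of 31 positive, and in replicates 3 and 4 alone 0.45, with 25 of 29 positive. Without KO 3 and KO 4, Slc17a7 had no footprint count in either remaining KO library and gave no usable estimate. In the fit of all 16 libraries the best counted member, Syt11, was at 0.00 (SE 0.54), and Shank3 at -0.09 (SE 0.30). With culture as a block they were -0.06 (SE 0.12) and -0.10 (SE 0.16). Syt11 was at -0.57 with KO 3 and KO 4 left out and no block.

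The other genes of these pathways were taken from lists of 71 further presynaptic and 55 further postsynaptic genes. In RNA, 51 and 46 of them were tested, with median log2 KO over WT of -0.12 and -0.16. In footprints, 55 and 49 were tested, with medians of -0.035 and -0.027. Without KO 3 and KO 4 the footprint medians were -0.26 and -0.21, over 55 and 50 genes. By edgeR none passed the threshold in RNA, in footprints or in footprints relative to RNA. In each comparison the 3 genes of each list with the smallest p are named. In RNA these were Cplx1, a complexin, at -1.28 (SE 0.67), Apba1, a Munc18-binding adaptor, at -1.65 (SE 0.93), and Dnm3, a dynamin, at -1.01 (SE 0.59). The postsynaptic genes were Anks1b, a scaffold of the postsynaptic density, at -2.60 (SE 1.16), Cyfip2, a partner of FMRP and of the WAVE complex, at -1.23 (SE 0.58), and Kalrn, an exchange factor of dendritic spines, at -1.10 (SE 0.53). Anks1b RNA was 85.4 CPM in WT 2 and at most 10.3 in the other 7 libraries, and without WT 2 the log2 difference was -0.59 (SE 0.88). In footprints they were Sv2b, a relative of Sv2a, at 2.70 (SE 0.74, adjusted p = 0.753) by edgeR, Amph, which encodes amphiphysin, at 0.34 (SE 0.13), and the receptor phosphatase Ptprs at -0.42 (SE 0.19). Sv2b had 10.3 and 13.2 CPM of footprints in KO 3 and KO 4 and 0 to 1.73 in the other 6 libraries, the pattern of the 12 members above. DESeq2 called it, at 2.57 (SE 0.69, adjusted p = 0.033), and without KO 3 and KO 4 it was at -2.25 (SE 1.83) by edgeR. The postsynaptic genes were Sorbs2, an actin adaptor, at 0.48 (SE 0.20), Rapgef2 at -0.29 (SE 0.13) and Lrrtm3, a neurexin ligand, at -1.44 (SE 0.68). In footprints relative to RNA they were Dnm1, a dynamin that cuts vesicles from the membrane, at 1.71 (SE 0.84), the vesicle protein Syngr1 at 0.85 (SE 0.47) and Apba1 at 1.16 (SE 1.21), and on the postsynaptic side Kalrn at 1.10 (SE 0.76), Sorbs2 at 0.57 (SE 0.56) and Mpp3 at 0.67 (SE 0.67). By edgeR none of these values passed. Without KO 3 and KO 4, footprints relative to RNA were at 0.16 (SE 0.88) for Dnm1, 0.77 (SE 0.66) for Syngr1 and -0.75 (SE 1.39) for Apba1. On the postsynaptic side the values without them were -0.55 (SE 0.70) for Kalrn, 1.41 (SE 0.79) for Sorbs2 and 0.006 (SE 0.96) for Mpp3. The highest 2 footprint values lay in KO 3 and KO 4 for 16 of 70 of the further presynaptic genes in the table, Sv2b and Dnm1 included. The same held for 7 of 55 postsynaptic genes, against 3.9% of the 11472 genes tested in footprints. Not all of the further genes were in that test. Footprints over RNA in these lists gave 22 higher and 14 lower of 50 presynaptic genes (median 0.12), and 6 higher and 30 lower of 45 postsynaptic genes (median -0.68), beside the medians of 0.12 and -0.51 of the members. Over all genes tested, 41.7% were called higher and 39.0% lower, so the presynaptic share called higher was near that of all genes.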

How the data were processed

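The authors deposited estimated counts per gene for 16 libraries, and TPM as whole numbers, which are treated here as a score. The submitters' processing notes list, with no role, RSEM 1.2.11 and 5 other tools (Bowtie2 2.1.0, cutadapt 1.7.1, TopHat2 2.0.9, bedtools 2.22.0 and SAMtools 0.0.19) and the build mm10. For strand use and for whether identifiers were collapsed, nothing is stated in the sources at hand. RSEM shares out reads that match several genes, so values of close paralogs are uncertain. Per the labels, an amplification kit (NuGEN Ovation) gave the RNA libraries and adapter ligation the footprint libraries.

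Of 20436 rows, 27 with a bare number in place of a symbol (0.244% to 0.422% of a library's counts) were left out. Counts were rounded and fitted with edgeR 4.0.16 (R 4.3.3): TMM, filterByExpr, quasi-likelihood test, two-sided, Benjamini-Hochberg adjustment over all genes tested, threshold 0.05. RNA was fitted by genotype, footprints by genotype and identifier length, footprints relative to RNA (TE) as the assay by genotype interaction, and footprints over RNA with culture as a block. The SE comes from the F statistic. The fits were tested on simulated data. DESeq2 1.42.0 and limma 3.58.1 (voom) were alternatives, and so, chosen after the values were seen, was TE with culture as a block. The floor for a count of 0 is 3 counts and covers counting error only.

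The members and lists were chosen with earlier results of these data known. Members are named by a rule: those past the threshold, the 4 highest RNA TPM of each side, the 3 smallest p of each genotype comparison and the 2 highest and lowest ratios of each side; of each further pathway list, the 3 smallest p of each genotype comparison. Syt1, Syt4, Snap25, Slc17a6, Dlg2 and Dlgap1 are given beyond the rule, chosen after their values were seen. All 38 symbols matched RefSeq (GRCm38.p6, the assembly of mm10).

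Replicate numbers come from the sample titles. A WT library and the KO library of the same number deviated together from their group means across genes (r = 0.555 to 0.650 for the 4 RNA pairs, 0.419 to 0.585 for the 4 footprint pairs). As each of these r is over 0.1, the numbers are taken to pair the cultures, and the fit with the number as a block is an alternative. Between different numbers r ran from -0.595 to 0.424 and from -0.507 to 0.467. Some of these are over 0.1 too, so that cutoff does not set pairs of the same number apart. In footprints WT 1 and KO 2 had 0.467, above the 0.419 of WT 2 and KO 2. The pairing is therefore an assumption, and what else makes cultures alike was not tested.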

Additional observations from a re-analysis of the deposited data

Results flagged for a closer look

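Of 140 groups of 4 libraries in which a member was examined, 12 held a library far from the other 3, where chance gives about 1 in 20. Culture WT 2 held 5 of these. Its RNA was highest for Syt1 (29.0 CPM, others 0 to 1.18) and Dlg3 (12.1 CPM, others 0.823 to 2.35), and its footprints for Syt1 (23.2 CPM, others 0.0726 to 3.46), Rims1 (3.49 CPM, others 0 to 0.216) and Sv2a (14.7 CPM, others 8.00 to 9.14). WT 1 RNA was highest for Shank3 (156 CPM, others 94.7 to 105) and Camk2a (50.2 CPM, others 7.74 to 14.9). KO 4 RNA was highest for Syn1 (55.8 CPM, others 24.5 to 29.4), and WT 4 footprints for Snap25 (4.54 CPM, others 1.62 to 1.96). In KO footprints, replicate 2 was highest for Dlgap1 (20.3 CPM, others 5.29 to 7.03) and lowest for Homer1 (5.46 CPM, others 18.2 to 19.9). Replicate 1 was highest for Dlgap3 (9.67 CPM, others 4.75 to 5.48). Homer1, the scaffold that binds metabotropic glutamate receptors and SHANK, was low in footprints also in WT 2, at 7.29 CPM against 18.3 to 20.5 in the other WT libraries, while its RNA was highest in WT 2 and KO 2.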

How the results depend on the processing

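Genes called in RNA (1) became 20 with DESeq2 and 0 with limma-voom, in replicates 1 and 2, in replicates 3 and 4, with the replicate block, without KO 3 and KO 4, and without these and WT 2, and 0 to 1 with any single library left out. Genes called in footprints (4) became 82 with DESeq2, 0 in replicates 1 and 2, 2 in replicates 3 and 4, 0 with the replicate block, 0 without KO 3 and KO 4, 168 without these and WT 2, and 0 to 14 with any single library left out. The settings that leave out KO 3 and KO 4 were chosen after seeing the data, and the causes of these changes were not tested. The 1 member that DESeq2 called in footprints was Slc17a7. The blocked fit changed no call of a member. Pclo footprints relative to RNA turned to -0.84 (SE 1.36) without KO 3, KO 4 and WT 2, and Slc17a7 footprints have no difference to fit without KO 3 and KO 4, since KO 1 and KO 2 were at 0. The presynaptic minus postsynaptic median stayed above 0 in all 18 alternatives, from 0.47 with a minimum of 50 counts to 1.57 without the 5 genes of both sides, and from 0.83 to 1.00 with 1 culture left out. Of the 19 members called for footprints over RNA, 14 passed in all 17 alternatives or in each that could be fitted; Cplx2 missed in 12, Syn2 and Dlg3 in 3 each, and Rims2 (replicates 3 and 4 only) and Camk2b (replicates 1 and 2 only) in 1 each. With 4 cultures a genotype, members with few counts could show only large differences.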
